A study of Mus musculus with 12 samples.

Results

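The S100 calcium-binding proteins were followed through the messenger RNA of cultured mouse fat-pad cells. The 9 genes described are S100a1, S100a3, S100a4, S100a6, S100a10, S100a11, S100a13, S100a16 and S100b, which were selected by gene symbol among the 19429 genes listed in either deposited table. The list was drawn up with earlier results of these data known, and a large rise of S100a6 without miR-26 was among them. The knockout values of the members are therefore a description and give no independent support for a behaviour of the family. All 9 members had a row in both tables. Another 5 S100 genes, S100a5, S100a7a, S100a8, S100a14 and S100g, also had a row and are given beside the members. Of these, S100a8 had a row for WT and TKO but none for CTL and Dox. S100a2, S100a7l2, S100a9 and S100z had no row in the tables used here.

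The study sequenced messenger RNA from 12 primary cultures of stromal vascular fraction cells, taken from white adipose tissue, the mixture that remains when mature fat cells are removed and that holds the progenitors of new fat cells. Every culture came from C57BL/6 mice aged 6 weeks, and the 4 groups held 3 libraries each. WT cells were wild type, and TKO cells were -/- for miR-26a-1, for miR-26a-2 and also for miR-26b, so that every miR-26 gene was deleted. CTL and Dox cells both carried M2rtTA, a transactivator that doxycycline switches on, and eGFP.miR-26a, a transgene that yields miR-26a. Dox cells received doxycycline at 1 mg/ml for 4 days and CTL cells did not, so both the drug and the microRNA differ between them and their parts cannot be told apart. The labels do not say which promoter drives M2rtTA, and they do not say whether the replicates are separate animals or separate cultures. The p-values therefore measure the spread between these libraries, which may be technical in part. In such bulk samples, fewer cells of a type and less RNA per cell cannot be told apart.

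S100 proteins are small proteins with a pair of EF-hands, the loop-and-helix motifs that bind calcium. On binding calcium most of them open a surface that docks onto target proteins such as annexins, myosin and tropomyosin, and several also leave the cell and bind surface receptors. S100a10 is an exception that no longer needs calcium and sits in a complex with Anxa2. Most S100 genes lie together in 1 cluster on mouse chromosome 3, and S100b, the form best known from glia, lies apart.

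The microRNA that the study removed or added is shown first, because a pairing site for its seed is what a direct target would carry. Both forms share the seed, bases 2 to 8, printed in capitals. The sequences are those of RefSeq for GRCm38.p6.
miR-26a-5p: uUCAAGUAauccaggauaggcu
miR-26b-5p: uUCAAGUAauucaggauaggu

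A site for this seed in the 3' untranslated region (UTR) was looked for in 1 transcript per gene of the GENCODE vM21 annotation. The motif TACTTGA, which pairs with bases 2 to 8, and ACTTGAA, which pairs with bases 2 to 7 and ends in A, were found in 0 of the 9 members, against 18.2% of 20945 genes. The UTRs of the members are short, with a median of 187 bases against 935 over those genes. The shorter motif ACTTGA was found in S100a10 and S100b, 2 of the 9 members, against 31.3% of genes. Both stretches are printed with the motif in capitals, since they are the only matches to any part of this search among the members. A match of this length describes the letters and no more.
S100a10: ccacggggtcACTTGAggaatctgcc
S100b: gggaagctggACTTGAggctttctaa

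Upstream sequence is shown for 3 members, S100a6 and S100a4, the neighbours with the largest rise in TKO, and S100a11, the member that fell. Each runs over the 250 bases before the RefSeq start on the plus strand of GRCm38.p6, at chr3:90612644-90612893 for S100a6, chr3:90603520-90603769 for S100a4 and chr3:93520246-93520495 for S100a11. Capitals mark matches, on either strand, to the AP-1 motif TGANTCA, the E-box CACGTG, the TATA box TATAAA, the GC box GGGCGG or the TEAD motif GGAATG.
S100a6: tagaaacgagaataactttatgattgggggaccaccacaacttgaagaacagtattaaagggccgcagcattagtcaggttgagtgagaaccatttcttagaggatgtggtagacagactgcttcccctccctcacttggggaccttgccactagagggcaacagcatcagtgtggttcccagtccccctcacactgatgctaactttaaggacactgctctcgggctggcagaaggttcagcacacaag
S100a4: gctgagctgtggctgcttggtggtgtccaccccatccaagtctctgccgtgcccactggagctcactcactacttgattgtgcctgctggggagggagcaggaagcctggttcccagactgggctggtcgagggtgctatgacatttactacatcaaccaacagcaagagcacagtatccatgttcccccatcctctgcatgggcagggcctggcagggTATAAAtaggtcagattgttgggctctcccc
S100a11: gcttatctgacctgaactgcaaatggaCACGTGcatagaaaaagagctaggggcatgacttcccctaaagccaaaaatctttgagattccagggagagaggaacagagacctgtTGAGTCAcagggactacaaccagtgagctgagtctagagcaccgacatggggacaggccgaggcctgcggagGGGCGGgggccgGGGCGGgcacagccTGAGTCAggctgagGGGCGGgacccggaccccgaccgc

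The 3 stretches had no match in common. S100a6 held none of the 5 motifs. S100a4 held a TATA box at position -31 from the start, a motif in 12.4% of 32851 upstream windows of that length. S100a11 held the AP-1 motif at positions -136 and -38, the E-box at -223, and GC boxes at -64, -52 and -24. Over all windows AP-1 was in 6.7%, the E-box in 6.0%, the GC box in 32.7% and the TEAD motif in 12.6%.

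Between 19301969 and 83461531 reads per library were recovered from the deposited values, and the CTL and Dox libraries were the shallower ones. Values are the deposited normalised read counts and levels are also given per kilobase of the transcript where genes are compared. Genes that reached a value of 1 in 3 or more libraries of a comparison were tested, and 8 of the 9 members passed in both, the exception being S100a3. Of the 10 stromal progenitor markers, Pdgfra, the defining one, ran between 560 and 843 in WT and TKO and between 517 and 1082 in CTL and Dox. Others were lower, such as Pi16 at 2.22 to 11.2 in WT and TKO and at 2.16 to 5.38 in CTL and Dox. Dpp4 ran between 2.39 and 12.1 in WT and TKO and between 3.30 and 39.9 in CTL and Dox. Markers of glia, macrophages, epithelium, endothelium, muscle and adipocytes also had rows, and their levels are given below where they move with a member. Since the tables list only genes above 0, a row alone does not tell which cells were present.

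Per kilobase, S100a11, S100a6 and S100a10 led the family in all 4 groups, S100b was the lowest member that was tested, and S100a3 was nearly silent. In WT the order was S100a11 at 911 ± 119 per kilobase (mean ± SD, n = 3), S100a6 at 372 ± 11.6, S100a10 at 120 ± 10, S100a1 at 39.1 ± 4.65, S100a16 at 30.0 ± 1.68, S100a13 at 23.4 ± 1.68, S100a4 at 22.5 ± 2.73, S100b at 1.75 ± 0.541 and S100a3 at 0.251 ± 0.0664. The libraries of S100a13 and S100a4 overlapped in WT, and no other neighbours in that order did. S100a11 thus ranked 27 of 12635 tested genes by level per kilobase in WT, S100a6 ranked 92 and S100a10 ranked 407.

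In TKO the top of the order was turned round. S100a6 stood first at 1701 ± 170 per kilobase and ranked 11 of 12635 genes, and S100a11 came next at 556 ± 16.8 and ranked 61. S100a4 moved up to 92.8 ± 31.9 per kilobase, where its libraries overlapped with those of S100a10 at 140 ± 14.3. Below them came S100a16 at 44.6 ± 8.14, S100a13 at 31.4 ± 7.76 and S100a1 at 29.0 ± 14.5. The libraries of S100a1 overlapped with those of S100a13 and also with those of S100a16. S100b stood at 2.2 ± 1.2 and S100a3 at 0.419 ± 0.152.

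CTL and Dox shared their top 3, with S100a6 at 874 ± 254 and 869 ± 227 per kilobase, S100a11 at 512 ± 54.4 and 433 ± 80.5, and S100a10 at 126 ± 11.7 and 117 ± 22.9. S100a4 and S100a16 changed places between these groups, at 61.5 ± 43.6 and 48.9 ± 6.02 per kilobase in CTL and at 44.1 ± 24.7 and 49.7 ± 11.9 in Dox. Their libraries overlapped in both groups. Below them, S100a13 was at 30.6 ± 6.74 in CTL and 29.8 ± 9.23 in Dox, S100a1 at 24.5 ± 4.05 and 24.9 ± 8.12, S100b at 2.1 ± 0.901 and 2.08 ± 1.1, and S100a3 at 0.368 ± 0.206 and 0.212 ± 0.0638. In both groups the libraries of S100a13 overlapped with those of S100a1 and of S100a4, and those of S100a1 with those of S100a4. In Dox the libraries of S100a13 also overlapped with those of S100a16. The level of S100a6 depends on the gene model, since dividing by the summed length of all its annotated exons gave 199 per kilobase in WT and 910 in TKO. S100a11 stood above S100a6 in WT and below it in TKO by that length too. The 2 tables were normalised separately, so levels in WT and CTL are not compared.

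**Figure D1:**
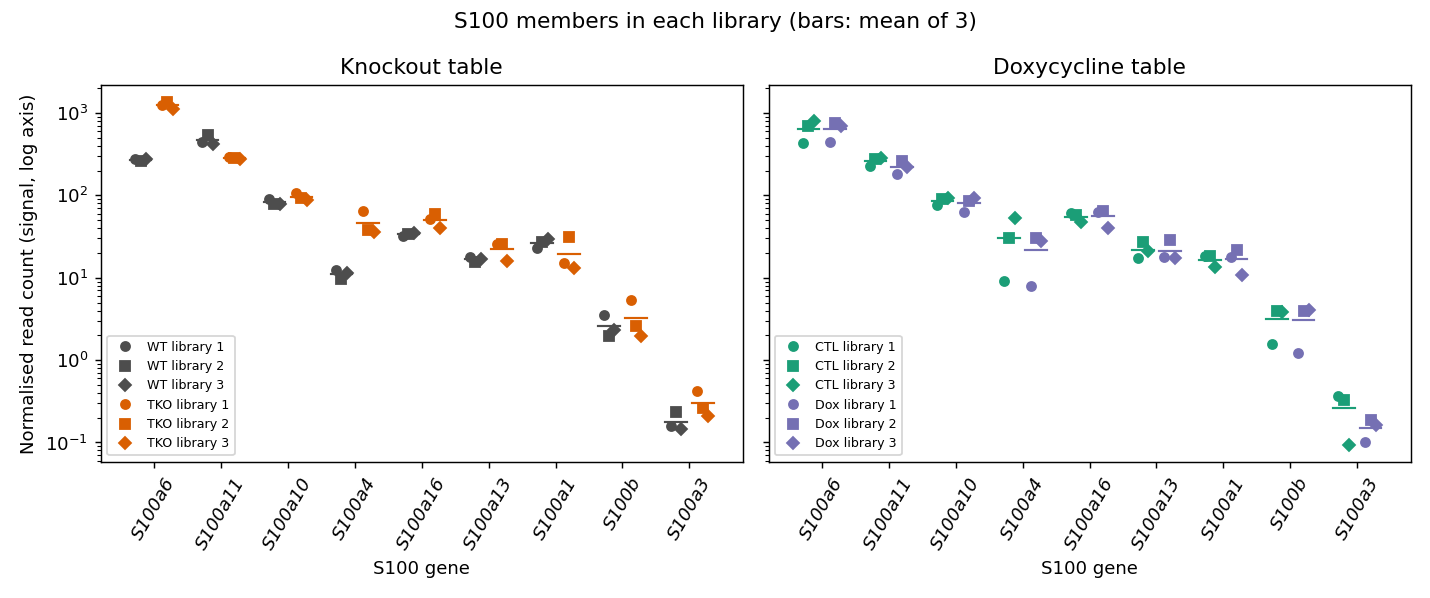
Normalised read count of each member (log axis) in every library, WT and TKO on the left and CTL and Dox on the right, with points for libraries and bars for the mean of 3. S100a6 and S100a4 lie higher in all 3 TKO libraries than in any WT library and S100a11 lies lower, while CTL and Dox points overlap for every member.

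Loss of miR-26 went with a large rise of S100a6 and S100a4, a smaller rise of S100a16 and a fall of S100a11. By limma, with p-values adjusted by Benjamini-Hochberg over all 12649 genes tested, 3 of the 8 tested members rose and 1 fell. Over all genes tested the same threshold called 45.8%, with 23.2% higher and 22.7% lower. The same 4 members were those whose groups did not overlap, as was the case for 58.8% of all genes. The median log2 fold change of the 8 members was 0.29, against 0.00 over all genes. Because this contrast was known when the members were chosen, nothing is read from these shares.

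S100a6, or calcyclin, binds annexins and the calcyclin-binding protein Cacybp and is abundant in fibroblasts. Its normalised read counts were 275.6, 262.5 and 278.5 for the WT libraries, then 1261, 1358 and 1112 for the TKO libraries. The WT libraries lay within a narrow band and the lowest TKO library lay far above it. This gave a log2 rise of 2.18 ± 0.09 (SE, adjusted p = 1e-04 by limma), which ranked 13 of 12649 genes from the top. The lowest and highest log2 fold change on leaving out any 1 library were 2.12 and 2.26.

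S100a4, also called fibroblast-specific protein or metastasin, binds non-muscle myosin and is a common marker of fibroblasts. S100a4 had normalised read counts of 12.5, 9.77 and 11.3 in WT against 64.6, 38.0 and 36.1 in TKO. TKO library 1 was the highest, and the lowest TKO library exceeded every WT library. S100a4 rose by 1.91 ± 0.22 on the log2 scale (SE, adjusted p = 0.0011 by limma), rank 21 from the top, and it was 1.65 without TKO library 1. Of the 10 stromal progenitor markers tested 0 were higher and 2 were lower, Thy1 (-0.86 ± 0.15, adjusted p = 0.0043) and Pdgfrb (-0.47 ± 0.12, adjusted p = 0.017). Over all genes tested 23.2% were called higher and 22.7% lower, 45.8% in all. These are the shares to set beside each count of marker calls in TKO, here and below. Ly6a, another stromal progenitor marker, stood at 142, 108 and 111 in WT and at 347, 202 and 135 in TKO. It was highest in TKO library 1, as S100a4 was, and did not pass (0.81 ± 0.32, limma adjusted p = 0.081). Within TKO, Thy1 was also highest in library 1, while Pdgfra, Dcn, Lum and Dpp4 were lowest there. Pdgfra was at 560, 843 and 667 in TKO and Dcn at 633, 2041 and 950. The summed level of the list, most of it Col1a1, was 13367 to 14834 in WT and 14044 to 15227 in TKO. The 5 epithelial markers with a row summed to 34.4, 39.7 and 8.97 in WT and to 0.482, 18.9 and 87.6 in TKO, and 0 passed (limma). The part of these markers in the change of S100a4 was not tested. Of the 50-base stretches of the S100a4 transcript, 56.3% also occur in Gm42674, an annotated locus on the same strand that shares 51.7% of the exonic bases of S100a4. Gm42674 had no row in the tables used here, so how reads in the shared part were assigned is not known and the level of S100a4 is uncertain.

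S100a11 binds Anxa1 and takes part in membrane repair and growth control. WT libraries held 446.3, 534.0 and 416.9 normalised reads of S100a11, and TKO libraries held 291.9, 285.3 and 274.9. All TKO libraries lay below all WT libraries and were close to each other. The fitted change was -0.70 ± 0.10 (log2, SE, adjusted p = 0.0021 by limma). The pseudogenes Gm12854, Gm29240 and Gm7665 share 41.1% of the 50-base stretches of S100a11, so part of its reads could have been assigned elsewhere or dropped. Gm12854 and Gm7665 had mean normalised read counts of 0.123 and 0.600 in WT, and Gm29240 had no row in the tables used here.

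S100a10, the partner of Anxa2, differed little. Normalised read counts of S100a10 were 90.4, 79.0 and 78.1 in WT against 107.1, 92.7 and 88.3 in TKO, so the highest WT library lay above the lowest TKO library. Its change of 0.22 ± 0.10 (log2) did not pass (SE, limma adjusted p = 0.11). It passed, at 0.34 with adjusted p = 0.017, when values were scaled by library size alone, a scaling that raised the median of all genes by 0.11 and the higher share of called genes from 50.6% to 66.7%.

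S100a16, a widely expressed member reported to promote fat cell formation, had normalised read counts of 31.7, 34.2 and 35.4 in WT against 51.2, 59.0 and 40.7 in TKO. The groups did not overlap, although TKO library 3 lay close to the WT range. S100a16 rose by 0.55 ± 0.13 on the log2 scale (SE, adjusted p = 0.016 by limma). It did not pass without WT library 1 or WT library 2, with an adjusted p of 0.062 and 0.054.

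S100a13, which takes part in the release of the growth factor Fgf1 from cells, had normalised read counts of 17.8, 15.4 and 16.9 in WT against 25.7, 25.6 and 16.03 in TKO. TKO libraries 1 and 2 lay above WT and TKO library 3 lay within the WT range. The difference of 0.37 ± 0.18 (log2) did not pass (SE, limma adjusted p = 0.14), and without TKO library 3 it was 0.59 with an adjusted p of 0.0048. Adipocyte markers other than Lpl split the TKO libraries in the same way. Adipoq, the defining one, was at 1.18, 1.85 and 2.80 in WT and at 16, 16.3 and 0.787 in TKO, and Fabp4 was at 25.5, 26 and 25.6 and at 83.5, 80.7 and 27.1. The 5 tested had a median log2 fold change of 1.47 and 0 passed (limma). The 7 with a row, most of their sum being Lpl, summed to 1106 to 1566 in WT and to 1050, 1810 and 883 in TKO. Their part in the values of S100a13 was not tested.

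S100a1, best known from muscle, where it acts on calcium handling, starts 42 bases from S100a13 on the other strand. Normalised read counts of S100a1 were 23.2, 26.9 and 29.4 in WT against 14.955, 30.9 and 13 in TKO. TKO library 2 was the highest of all 6 and the other two TKO libraries were the lowest. The difference of -0.51 ± 0.30 (log2) did not pass (SE, limma adjusted p = 0.21), and without TKO library 2 it was -0.87 with an adjusted p of 0.0033. TKO library 2 also stood apart in the 10 macrophage markers, whose summed level was 38.6 to 64.0 in WT and 59.0, 276 and 51.3 in TKO, with Ptprc at 6.25 there and 0.765 to 2.23 in the other 5 libraries. Of these markers 9 were tested and 0 passed (limma). The 6 skeletal muscle markers, most of their sum being Des, summed to 122, 242 and 145 in WT and to 143, 216 and 125 in TKO. TKO library 2 was thus the highest of its group there too, and WT library 2 was higher still. Their defining marker Ckm was at 0.145 to 0.317 in WT and at 0.033 to 0.492 in TKO, and 0 of the 4 tested passed. The part of either list in the values of S100a1 was not tested.

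S100b, a marker of Schwann cells and other glia that fat cells also make, was low. Its normalised read counts were 3.495, 1.95 and 2.34 in WT against 5.30, 2.56 and 1.95 in TKO, and the groups overlapped. The fitted difference was 0.19 ± 0.30 (log2, SE, adjusted p = 0.63 by limma). TKO libraries 1 and 2 were both high in the adipocyte markers given above, with S100b at 5.30 in library 1 and 2.56 in library 2. Within WT, library 1 was the highest for S100b and the lowest for Adipoq, at 1.18. Sox10, the glial marker, was at 1.71 to 2.68 in WT and at 1.41 to 2.29 in TKO, and 0 of the 6 glial markers tested passed. The part of either list in S100b was not tested.

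S100a3, known from the hair cuticle, was at 0.159, 0.233 and 0.145 in WT and at 0.420, 0.265 and 0.211 in TKO. It lay under the filter in every library and was not tested.

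Among the S100 genes outside the list, S100g had the widest spread. S100g encodes calbindin-D9k, a vitamin D-responsive calcium buffer of the intestine. Its normalised read counts were 0.794, 4.27 and 11.1 in WT against 7.80, 111 and 29.0 in TKO. TKO library 1 lay within the WT range and TKO library 2 far above all others. Its difference of 2.67 ± 1.03 (log2) ranked 4 of 12649 genes and did not pass (SE, limma adjusted p = 0.073). Without TKO library 1 it was 3.58 with an adjusted p of 0.023, and DESeq2 on all libraries gave an adjusted p of 0.027. S100a5, S100a7a, S100a8 and S100a14 had group means of at most 1.05 and were not tested, and S100a8, a neutrophil gene, was at 0.036 to 0.177 in WT and 0.078 to 0.833 in TKO.

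The members are short genes, and gene length moved with the knockout contrast. The 8 tested members had a median transcript length of 700 bases against 3154 over the genes tested. Across 12635 genes the log2 fold change correlated with transcript length (Spearman's rho -0.32) and with GC content (rho 0.31), which is a description across genes that share the same 6 libraries. A smooth curve in length and GC content was fitted to the values and removed, and it held 15.7% of the variance of the fold changes. S100a6 then stood at 1.81 ± 0.06, S100a4 at 1.62 ± 0.22 and S100a11 at -1.0 ± 0.12 (log2, SE), all past the threshold (limma adjusted p of 7.4e-05, 0.0017 and 0.0010). S100a16 did not pass at 0.19 ± 0.09 (adjusted p = 0.12), and S100a1 passed as lower at -0.89 ± 0.25 (adjusted p = 0.027). S100a10 and S100a13 changed sign, to -0.10 and -0.01. In that fit 2 members were higher and 2 lower, the median of the 8 was 0.02, and 45.8% of all genes were called. How much of the trend is technical was not tested.

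**Figure D2:**
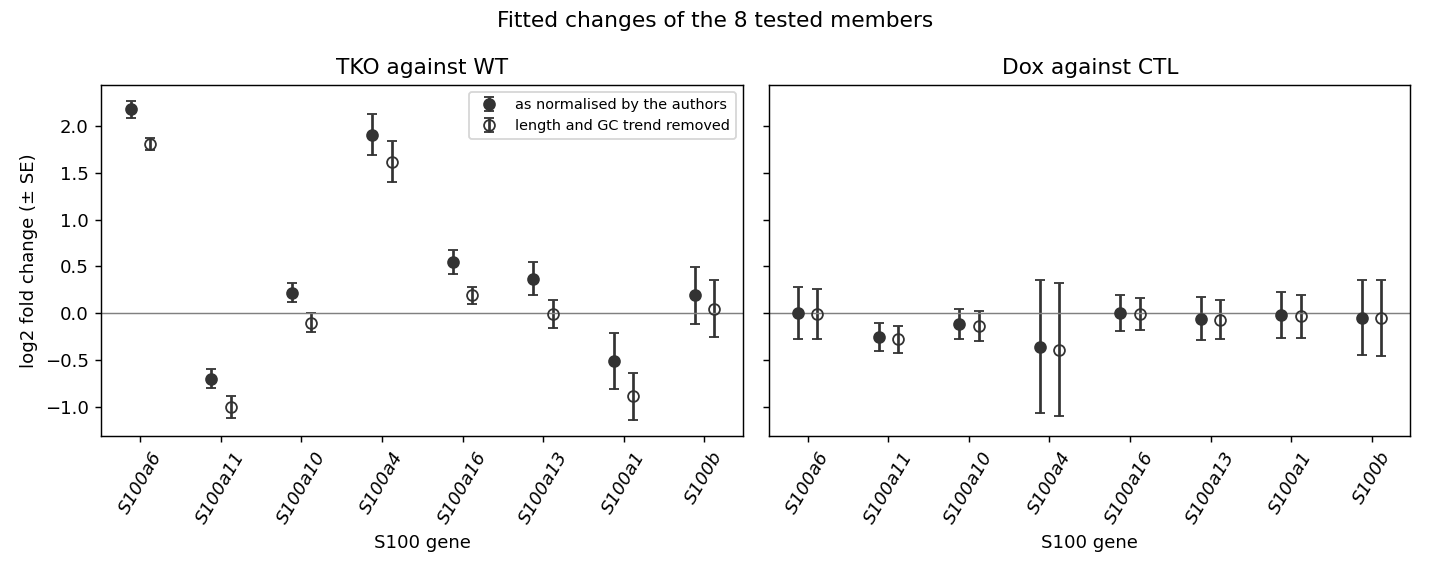
Log2 fold change with its standard error for the 8 tested members, TKO against WT on the left and Dox against CTL on the right, with filled points for the values as normalised by the authors and open points after removal of the length and GC trend. S100a6 and S100a4 stay above 1.5 and S100a11 below -0.5 in the knockout panel, and all points of the Dox panel lie within 0.5 of 0.

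The authors' deposited table for TKO against WT gave S100a6 a log2 fold change of 2.19 (false discovery rate 1.4e-62), S100a4 one of 2.05 (8.9e-13), S100a11 one of -0.71 (2.1e-06) and S100a16 one of 0.57 (0.0051). In the authors' deposited table no other member had a rate under 0.05, the next lowest being 0.27 for S100a13. The same 4 members were thus called in that table and by limma.

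The chromosome 3 members form a tight block and a distant pair in GRCm38. From S100a1 to S100a6 the block spans 113.1 kb, with S100a1 at chr3:90511034-90514392 on the minus strand and S100a13 (chr3:90514435-90524581), S100a16 (chr3:90537254-90543151), S100a3 (chr3:90560578-90602702), S100a4 (chr3:90603771-90606045) and S100a6 (chr3:90612882-90624181) on the plus strand. S100a11 (chr3:93520488-93526287) and S100a10 (chr3:93555080-93564643) lie 2.90 Mb beyond S100a6 and 28.8 kb from each other, and S100b lies at chr10:76253853-76261159. Neighbours did not share 1 direction. S100a4 and S100a6, whose starts lie 9.1 kb apart, rose together, whereas S100a11 fell and its neighbour S100a10 did not pass.

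Of the 12 genes that are not S100 genes, lie within 200 kb of a member and were tested, 4 were higher and 2 lower in TKO (limma, against the 45.8% called over all genes), with a median log2 fold change of 0.10. Slc27a3, a fatty acid transport protein gene, rose by 1.08 ± 0.19 (SE, adjusted p = 0.0042), Prmt2 beside S100b by 0.33 ± 0.09 (adjusted p = 0.019) and Chtop beside S100a1 by 0.29 ± 0.06 (adjusted p = 0.0090). Gatad2b, a chromatin repressor subunit, had -0.71 ± 0.06 (adjusted p = 0.00048). The nearest tested genes beyond S100a1 that are not S100 genes, Chtop and Snapin, stood at 0.29 and -0.26, far from the values of S100a4 and S100a6.

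**Figure D3:**
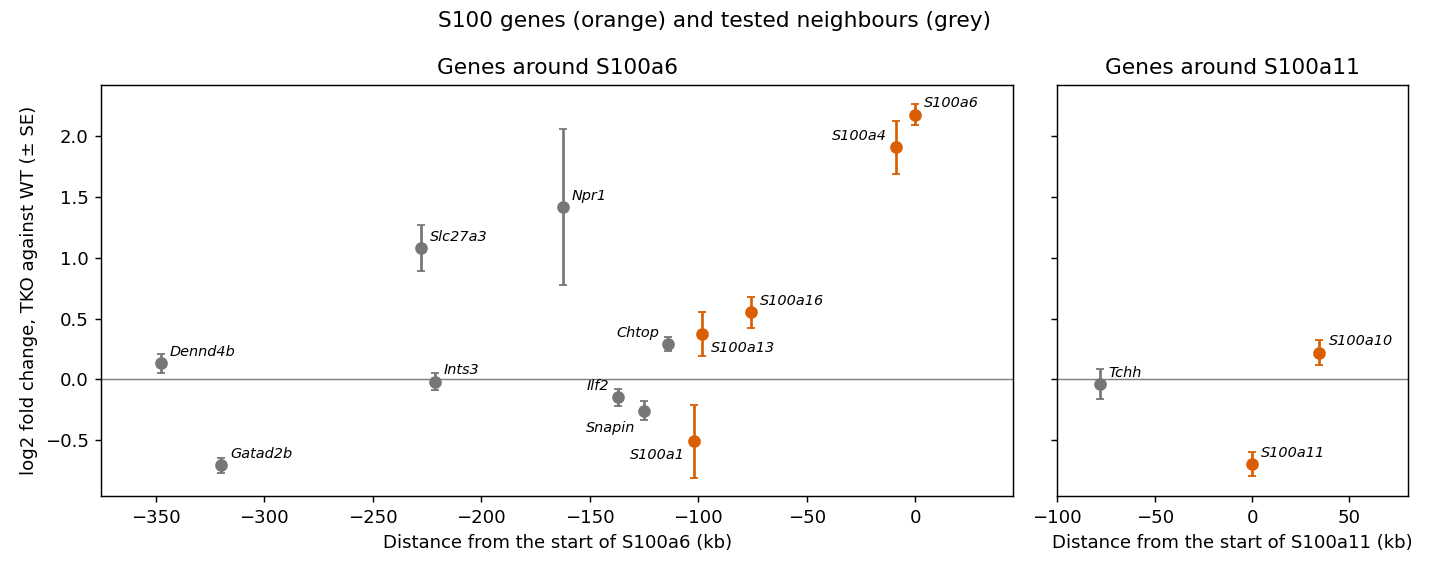
Log2 fold change with standard error, TKO against WT, of tested genes against the distance of their start from the start of S100a6 (left) or S100a11 (right) in kb, with S100 genes in orange and neighbours in grey. S100a4 and S100a6 stand at 1.91 and 2.18 at the right of the block, and the S100 genes about 100 kb to the left lie between -0.51 and 0.55.

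Of the 10 annexins tested, the best-known S100 partners, 4 were higher and 2 lower in TKO, with a median log2 fold change of 0.19. For this list and the next 2, the shares to set beside the counts are the 23.2% of all genes called higher and the 22.7% called lower, so calls in both directions are common to genes in general. Anxa2, the partner of S100a10, had normalised read counts of 594, 532 and 520 in WT against 883, 753 and 680 in TKO (log2 0.49 ± 0.11, SE, limma adjusted p = 0.013). Anxa8 rose by 0.97 ± 0.12 (adjusted p = 0.0013) and Anxa6 by 0.31 ± 0.06 (adjusted p = 0.0081), and Anxa5 had -0.56 ± 0.09 (adjusted p = 0.0032). Anxa1, the partner of S100a11, stood at 0.14 ± 0.11 (adjusted p = 0.33).

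Of the other partners and receptors, 1 was higher and 5 were lower of 15 tested, with a median log2 fold change of -0.24. Cacybp, which S100a6 binds, had normalised read counts of 99.7, 98.2 and 90.2 in WT against 73.2, 74.0 and 80.7 in TKO. The change was -0.33 ± 0.07 (log2, SE, adjusted p = 0.0087 by limma), opposite in sign to that of S100a6. Stip1, a chaperone adaptor that S100 proteins bind, had -0.83 ± 0.08 (adjusted p = 0.00049), the liprin gene Ppfibp1 -0.39 ± 0.07 (adjusted p = 0.0057) and S100pbp -0.24 ± 0.06 (adjusted p = 0.014). Myh9, the myosin that S100a4 binds, stood at -0.28 ± 0.14 (adjusted p = 0.15). Tpm1, a tropomyosin gene, had -0.43 ± 0.14 (adjusted p = 0.046). Bsg was the 1 gene of this list called higher, at 380, 404 and 473 in WT against 566, 640 and 476 in TKO. Its change was 0.41 ± 0.13 (adjusted p = 0.042). Ager, the receptor for extracellular S100 proteins, lay under the filter at 0.598 to 0.900 in the 6 libraries. Tlr4, another reported receptor, stood at 0.06 ± 0.06 (adjusted p = 0.49).

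Of 27 EF-hand genes tested outside the S100 family, 6 were higher and 9 lower, with a median log2 fold change of -0.09. Cib1 rose by 0.90 ± 0.08 (SE, limma adjusted p = 0.00045) and Pdcd6 by 0.65 ± 0.06 (adjusted p = 0.00048). Nucb2 had -0.73 ± 0.08 (adjusted p = 0.0010) and the calmodulin gene Calm2 -0.47 ± 0.06 (adjusted p = 0.0019).

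Doxycycline changed no S100 member past the threshold in the fit without the replicate number as a block. With the block, 0 members and 2.1% of all genes passed by limma. With the length and GC curve also removed, S100a11 alone of the members passed, beside 7.23% of all genes. Without the block, 0 of the 8 tested members passed by limma. Of all 12634 genes 0.0% passed in that fit, although 748 had an unadjusted p under 0.05. No member was among the 748, the lowest unadjusted p being 0.14 for S100a11. On recovered reads edgeR called 0 genes and DESeq2 called 99, with no member among them, although DESeq2 gave no adjusted p for S100b. No member had groups that did not overlap, against 12.2% of all genes, and the median log2 fold change of the members was -0.05 against 0.01 over all genes.

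The 3 members that rose in TKO gave the following values here. S100a6 had normalised read counts of 433, 692 and 792 in CTL against 447, 758 and 702 in Dox, a log2 fold change of 0.00 ± 0.28 (SE). S100a4 stood at 9.16, 30.2 and 52.6 in CTL and at 7.85, 30.2 and 27.8 in Dox, a log2 fold change of -0.36 ± 0.71. With the replicate number as a block, S100a4 was at -0.36 ± 0.15 (adjusted p = 0.26), and without number 2 the blocked value was -0.55 (adjusted p = 0.0039). Leaving out 1 library moved the unblocked value of S100a4 between -1.034 and 0.223. S100a16 stood at 60.4, 57.5 and 47.4 in CTL and at 63.6, 63.9 and 40.5 in Dox, a log2 fold change of 0.00 ± 0.19. In each the groups overlapped widely, and limma's unblocked adjusted p was 1.0.

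S100a11 was the member with the smallest p. Its normalised read counts were 229.9, 275.4 and 280.4 in CTL against 181.7, 263.8 and 218.8 in Dox. It was lower in Dox within each of the 3 same-numbered pairs, by log2 differences of -0.34, -0.06 and -0.36. The unblocked fit gave -0.25 ± 0.15 (log2, SE, adjusted p = 0.91 by limma). CTL and Dox libraries with the same number deviated together over all genes, so a fit with the replicate number as a block was also made. The blocked fit gave -0.25 ± 0.08 (adjusted p = 0.15), with 0 members and 2.1% of all genes called. Blocked and after the length and GC curve was taken out, S100a11 was at -0.28 ± 0.06 and passed (adjusted p = 0.031) as the only member, with 7.23% of all genes called.

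The remaining members overlapped between CTL and Dox. S100a10 had normalised read counts of 77.0, 89.5 and 92.0 in CTL and of 62.7, 84.3 and 93.1 in Dox (log2 -0.12 ± 0.16, SE). S100a13 was at 17.5, 27.0 and 21.1 against 17.8, 28.9 and 17.2 (-0.06 ± 0.23), and S100a1 at 18.1, 18.3 and 13.4 against 17.9, 21.8 and 10.9 (-0.02 ± 0.25). S100b was at 1.58, 3.92 and 3.87 against 1.21, 3.99 and 4.07 (-0.05 ± 0.40). Their limma adjusted p without the block ranged from 0.99 to 1.0. S100a3, not tested, was at 0.365, 0.327 and 0.094 in CTL and at 0.101, 0.190 and 0.161 in Dox. S100a10 and S100b, which hold the short match to the miR-26 seed, were not called by the unblocked limma fit in either comparison. In Dox that fit called 0.0% of all genes, and S100a10 passed in TKO when values were scaled by library size alone. Whether either gene responds to miR-26 through this match was not tested.

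The 4 fixed gene lists gave 0 calls in Dox by limma without the replicate block, and their calls were not counted with it. This covered 10 annexins, 15 partners and receptors, 27 other EF-hand genes and 12 neighbours. Without the block 0.0% of all 12634 genes passed, so a count of 0 in any list follows from that. It says nothing about these genes in particular.

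In CTL and Dox the larger differences ran between replicate numbers. Libraries CTL 1 and Dox 1 lay below all 4 others in S100a4, S100b, S100a6 and S100a10, as they did in 13.6% of the 12634 genes tested, and in no member did both lie above all others, as they did in 12.8%. The mean over the other 4 libraries was 4.14 times the mean of the 2 for S100a4 (35.2 against 8.5), 2.84 times for S100b, 1.67 times for S100a6 and 1.29 times for S100a10. S100g showed the same order, with 1.63 in the libraries numbered 1 and 6.16 in the others. S100a14 showed the reverse, at 1.82 and 2.37 in CTL 1 and Dox 1 and at 0.121 to 0.420 elsewhere.

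Markers of several other cell types followed the same numbers. The 5 epithelial markers with a row summed to 178, 37.0 and 5.42 in CTL 1 to 3 and to 192, 46.9 and 17.2 in Dox 1 to 3, with the defining marker Epcam at 18.7, 5.56 and 0.330 and at 20.0, 6.69 and 1.37. The 10 macrophage markers summed to 165, 78.8 and 40.2 in CTL and to 137, 77.4 and 28.8 in Dox, with Ptprc at 2.80, 1.82 and 0.189 and at 2.87, 1.22 and 0.765. Both CTL 1 and Dox 1 lay above the other 4 libraries in 5 of 5 epithelial, 8 of 10 macrophage, 5 of 6 skeletal muscle and 4 of 6 endothelial markers, and in 1 of 8 glial, 1 of 5 mesothelial, 2 of 10 stromal progenitor and 0 of 5 adipocyte markers. Adipoq, the defining adipocyte marker, was at 0.527, 0.234 and 6.51 in CTL and at 0.151, 0.152 and 3.22 in Dox. Plin1 and Cfd were also highest in number 3 of each group. Lpl was lowest there in each group, and Fabp4 was highest there in CTL and lowest there in Dox. The muscle markers, with Des the largest part of each sum, summed to 267, 170 and 203 in CTL and to 266, 253 and 212 in Dox. Ckm, their defining marker, was at 4.62, 2.48 and 0.047 in CTL and at 4.63, 3.88 and 0.282 in Dox. The endothelial markers summed to 109, 79.2 and 64.3 in CTL and to 143, 94.0 and 76.7 in Dox. The stromal progenitor sum, most of it Col1a1, ran at 21127, 19375 and 17210 for CTL 1 to 3 and at 21288, 19360 and 16504 for Dox 1 to 3. Both CTL 1 and Dox 1 lay below the other 4 libraries in 2 of 10 stromal progenitor markers, Ly6a and Cd34, and in 2 of 5 mesothelial markers. Ly6a was, like S100a4, lowest there, at 75.9, 118 and 245 in CTL and at 48.2, 104 and 124 in Dox. The 2 stromal progenitor markers that went the other way were Col1a1 and Dpp4. Dpp4 was at 39.1, 16.5 and 4.48 in CTL and at 39.9, 17.6 and 3.30 in Dox. In these lists no marker passed between CTL and Dox by limma without the block, and the blocked calls were not counted. The unblocked fit called 0.0% of all genes, so the lack of calls says nothing about the markers in particular. The part of these cells in the S100 values was not tested. Without the libraries numbered 1, the blocked log2 fold change of S100a4 was -0.45 ± 0.17 (SE, limma adjusted p = 0.26), that of S100a6 was -0.02 and that of S100b was 0.04.

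**Figure D4:**
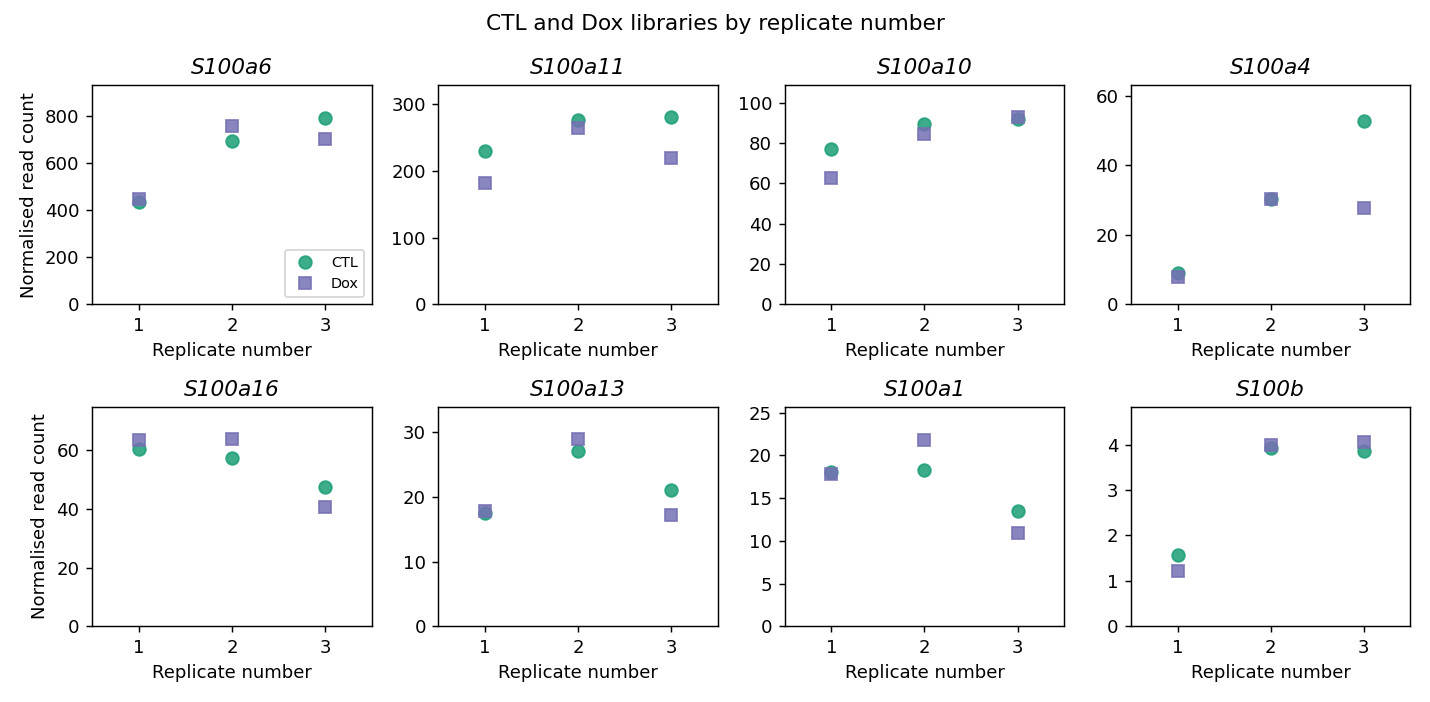
Normalised read count of each tested member in CTL (circles) and Dox (squares) by replicate number, 1 point per library, each axis starting at 0. CTL 1 and Dox 1 lie side by side below the other 4 libraries in S100a4, S100a6, S100a10 and S100b, and the S100a11 square lies below its circle at each number.

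The nearest patterns to the 3 members with the highest level were sought over 12373 genes tested in both tables, by the distance between log2 values centred within each table over the 12 libraries. For S100a6 the nearest were Atp5k, Ndufa2, AC121965.1, Gstp1 and Atp5e, at distances of 0.51 to 0.76 and with Pearson's r of 0.97 to 0.99. Their log2 fold changes in TKO were 2.05, 2.23, 2.26, 1.97 and 2.53, beside the 2.18 of S100a6, a closeness that the choice by distance sets. For S100a11 they were Ripor1, Rsu1, Polr2a, Mapk3 and Mapre2, with log2 fold changes of -0.81 to -0.55 in TKO. For S100a10 they were Lix1l, Abhd4, Cpt1a, Nim1k and Calr3, with log2 fold changes of 0.14 to 0.27 in TKO. The 3 sets shared no gene. The points share libraries and depth, so these likenesses are a description.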

How the data were processed

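Messenger RNA of 12 libraries was sequenced as 75-base single reads from stranded libraries, per the labels' protocols. The submitters' processing notes name TopHat2 2.0.12, featureCounts 1.4.6, edgeR 3.8.6, StringTie 1.2.2 and GRCm38, without roles, and the strand setting of the counting is not given in the sources used here. The signal values deposited by the authors are normalised read counts per gene, and a table lists a gene only where none of its 6 libraries is at 0. The log2 fold changes and p-values or false discovery rates deposited by the authors are printed only where their table is named. The members, the gene lists and the rule for the genes named were chosen with earlier results of these data known. The rule took every member, every other S100 gene with a row, up to 4 called genes per list, and 5 nearest genes for 3 members. Bsg and Tpm1, the other called partners and receptors, were named beside them.

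The planned count test applied only to counts, so limma 3.58.1 with a trend (R 4.3.3) was run on log2(signal + 1), and fold changes are on that scale, which understates changes of low genes. P-values were adjusted by Benjamini-Hochberg over every gene tested, and 0.05 was the threshold. Low values were whole multiples of 1 step per library. Dividing by it gave whole reads, within 0.1 reads, for 99.4% to 100% of values, on which edgeR 4.0.16 and DESeq2 1.42.0 were run as alternatives. Depth sets the counting error and can also affect which genes are listed, since a gene at 0 in any library is left out. For WT and TKO 19262 genes were listed and for CTL and Dox 16785, and the part of depth in this was not tested. Of the gene identifiers, 99.8% and 99.9% were in GENCODE vM21, which gave lengths, GC content and UTRs. Upstream and microRNA sequences are from RefSeq, which matched 8 of the 9 members. Tables were read with Python 3.11.15, pandas 2.3.3, numpy 2.4.6 and scipy 1.17.1 and drawn with matplotlib 3.10.9. The fits were also run on simulated counts of independent libraries, without structure by replicate number and without a length or GC trend. That run therefore does not cover these features of the real data. CTL and Dox libraries of the same number had correlations of 0.86, 0.58 and 0.74 between their deviations from the group means, so the numbers were taken to pair these samples. For WT and TKO the correlations were 0.45, -0.13 and -0.29, and the numbers were not taken to pair them.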

Additional observations from a re-analysis of the deposited data

How the results depend on the processing

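In TKO against WT the direction and call of S100a6, S100a4 and S100a11 held under every other setting run, except that with the block and number 1 left out of both groups, where 1117 genes were called, S100a11 was at -0.75 and its adjusted p was 0.051. With the length and GC trend removed, S100a10 was at -0.102 and S100a13 at -0.007, and the same values came with the replicate block added. Leaving out 1 library moved S100b between -0.126 and 0.421. The replicate block, a shared number only in this comparison, gave 5101 called genes and 3 higher and 1 lower member. WT and TKO libraries did not all correlate best with their own number.

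In Dox against CTL, DESeq2 called 99 genes, the replicate block 265, the block with the trend removed 912 genes and 1 member, and the block without the libraries numbered 1, 2 or 3 (chosen after seeing the data) 134, 1534 and 591 genes. Without number 2 it called 2 members, S100a11 (-0.35, adjusted p = 0.00075) and S100a4 (-0.55, adjusted p = 0.0039).

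Signs near 0 turned in Dox. S100a6 (0.0003 in the fit reported) was at -0.023 by edgeR, -0.027 by DESeq2, -0.014 by library size, -0.001 with median centring, -0.011 with the trend removed, blocked or not, and -0.022 and -0.065 blocked without number 1 or 2. S100a16 was at -0.0002 with a pseudocount of 0.1, -0.013 by library size, -0.001 with median centring, -0.006 with the trend removed, blocked or not, and -0.037 and -0.075 blocked without number 1 or 2. S100a1 was at 0.010 by edgeR, 0.007 by DESeq2 and 0.112 blocked without number 3, where S100a13 was at 0.059. S100b was at 0.038 blocked without number 1. Leaving out 1 library gave S100a1 -0.217 to 0.249, S100a4 -1.034 to 0.223, S100a6 -0.257 to 0.236, S100a10 -0.238 to 0.044, S100a13 -0.287 to 0.102, S100a16 -0.108 to 0.214 and S100b -0.357 to 0.346. None of these passed. The cause was not tested. The spread between 3 libraries limits what could be called.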
